A study of Mus musculus with 6 samples.

Results

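The Apoe cluster is a run of apolipoprotein genes on mouse chromosome 7. Its 8 genes considered here, Apoc1, Apoe, Apoc4, Apoc2, Tomm40, Clptm1, Relb and Bcam, are the rows of the expression table that carry these symbols, out of 43346 rows. Apoc1 was chosen by its measured level in these same samples, which was higher in the brain of mice deficient for Kdm5c. The other 7 were chosen by position, because they lie beside it, to ask whether the rise extends to its neighbours. The level of Apoc1 and its difference are therefore given as a description, with no test.

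RNA was sequenced from the brain of 3 adult male Kdm5c deficient mice and 3 wild-type male littermates, a mixed strain given as C57BL/6 & 129 (50:50). All 6 came from mothers heterozygous for the deficient allele, on C57BL/6, and wild-type 129 fathers. The labels describe neither the allele nor the part of the brain taken. Kdm5c is an X-linked gene for a demethylase of histone H3 lysine 4.

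Apolipoproteins coat lipid particles and decide which enzymes and receptors act on them. In the brain, apolipoprotein E is the main carrier of cholesterol and is secreted mostly by astrocytes, and by microglia when they are activated. The small apolipoproteins C-I and C-II are known mainly from liver and macrophages: C-I hinders the uptake of particles by their receptors, and C-II is the cofactor of lipoprotein lipase. In liver and macrophages the apolipoprotein genes of the cluster are known to share distant enhancers.

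The members lie in the order Relb, Clptm1, Apoc2, Apoc4, Apoc1, Apoe, Tomm40 and Bcam, from 19606217 to 19771016 on chromosome 7 (GRCm38), a span of 164.8 kb. All are on the minus strand, so that transcription of Apoe runs towards Apoc1. Apoc1 (19689481 to 19692660) starts 3448 nt beyond the end of Apoe (19696109 to 19699188). Apoc4 (19678083 to 19681479) lies 8001 nt beyond Apoc1, and Apoc2 (19671579 to 19677941) follows after 141 nt. The annotated exons of Apoc1, Apoe, Clptm1 and Relb overlap those of no other annotated gene. Exons of Apoc2 and Apoc4 overlap a readthrough gene on the same strand, by 646 and 119 nt, and exons of Tomm40 and Bcam overlap antisense genes, by 258 and 52 nt, so these 4 values are uncertain to that extent.

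For Apoc1, the member that differed most in fold, GENCODE holds 2 distinct complete coding sequences. The coding sequence shown is 267 nt long with its stop codon and encodes 88 amino acids in 3 coding exons. It is printed from the GENCODE transcript, 5′ to 3′, with the start and stop codons in capitals, and runs from 19692468 down to 19689576 on chromosome 7 (GRCm38).
Apoc1: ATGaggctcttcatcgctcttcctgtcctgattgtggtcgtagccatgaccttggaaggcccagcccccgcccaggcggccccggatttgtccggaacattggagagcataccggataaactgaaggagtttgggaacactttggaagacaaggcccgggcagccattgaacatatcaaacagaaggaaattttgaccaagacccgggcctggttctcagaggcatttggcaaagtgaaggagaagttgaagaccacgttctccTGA

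The RefSeq promoter table (GRCm38.p6) held 6 of the 8 members, with 8 starts in all. Relb and Apoc1 were not matched. The 250 bases before the start are shown for the most highly expressed member, Apoe, for the almost undetected Apoc2 and for the housekeeping gene Tomm40, with every CpG in capitals. They are the minus strand of chr7:19699189-19699438, chr7:19677942-19678191 and chr7:19715430-19715679.
Apoe: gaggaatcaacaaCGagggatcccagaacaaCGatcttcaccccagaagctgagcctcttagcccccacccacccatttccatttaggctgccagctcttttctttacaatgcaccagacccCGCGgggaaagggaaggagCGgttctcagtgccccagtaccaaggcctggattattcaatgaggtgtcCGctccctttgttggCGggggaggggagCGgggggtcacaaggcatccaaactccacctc
Apoc2: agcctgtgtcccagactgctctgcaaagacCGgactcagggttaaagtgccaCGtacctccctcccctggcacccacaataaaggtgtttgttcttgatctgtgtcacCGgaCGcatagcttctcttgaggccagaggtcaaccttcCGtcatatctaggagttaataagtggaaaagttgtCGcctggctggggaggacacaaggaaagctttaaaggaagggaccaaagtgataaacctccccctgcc
Tomm40: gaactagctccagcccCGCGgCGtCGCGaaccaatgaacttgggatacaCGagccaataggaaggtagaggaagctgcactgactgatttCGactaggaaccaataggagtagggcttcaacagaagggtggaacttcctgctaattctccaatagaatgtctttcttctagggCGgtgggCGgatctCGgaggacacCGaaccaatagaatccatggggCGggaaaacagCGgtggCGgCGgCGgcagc

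In the whole 300-base window, which reaches 50 bases past the start, Apoe had 10 CpG at this start and Apoc2 had 7, beside a median of 7 over 32851 promoters. Apoc4 had 5. The other neighbours in the promoter table had more: Tomm40 had 23, Bcam had 27 and Clptm1 had 30. Apoe, with the highest level, was thus nearer in CpG number to the 2 almost undetected genes than to Tomm40, Bcam and Clptm1. The E-box CACGTG was found in none of these 8 windows, and in 7.15% of all promoters, searched on both strands. TATAAA had 2 matches in the window of the second listed start of Apoe, which are 1 overlapping stretch read on each strand. It had none in the other windows, against 13.6% of all promoters with at least 1 match on either strand. The windows of the second and the third Apoe start overlap.

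Library totals ranged from 20221675 to 24555412 counts. Levels are given in CPM, counts relative to the total over tested genes after scaling by trimmed mean of M-values. Kdm5c RNA was at 73.9, 65.5 and 78.9 CPM in deficient mice 1, 2 and 3 and at 77.6, 82.8 and 84.0 CPM in wild-type mice 1, 2 and 3, so the genotypes overlapped and this level does not check the labels. The deficient mice differed more among themselves than the wild-type mice did: the chi-square per gene was 17.6 between deficient mice 1 and 2, 9.80 between 2 and 3 and 7.12 between 1 and 3, and 3.55 to 5.20 between wild-type mice. With edgeR's quasi-likelihood model, 371 genes rose and 375 fell among 15127 tested (adjusted p under 0.05), or 4.93%. On the same genes DESeq2 called 1209 and limma-voom 704 in either direction.

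Apoc1 RNA was low in every wild-type brain and several-fold higher in every deficient brain. Deficient mice 1, 2 and 3 had 227, 276 and 253 reads, which is 10.7, 11.6 and 11.6 CPM. Wild-type mice 1, 2 and 3 had 54, 43 and 32 reads, or 2.19, 2.10 and 1.40 CPM. The lowest deficient mouse lay far above the highest wild-type mouse, and the 3 deficient mice were close to each other. The log2 fold change was 2.57 ± 0.16 (SE), which is 5.95-fold. It stayed between 2.40 and 2.70 when any 1 mouse was left out. In the authors' deposited table, with its sign turned to deficient over wild type, the shrunken log2 fold change of Apoc1 was 1.74.

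**Figure D1:**
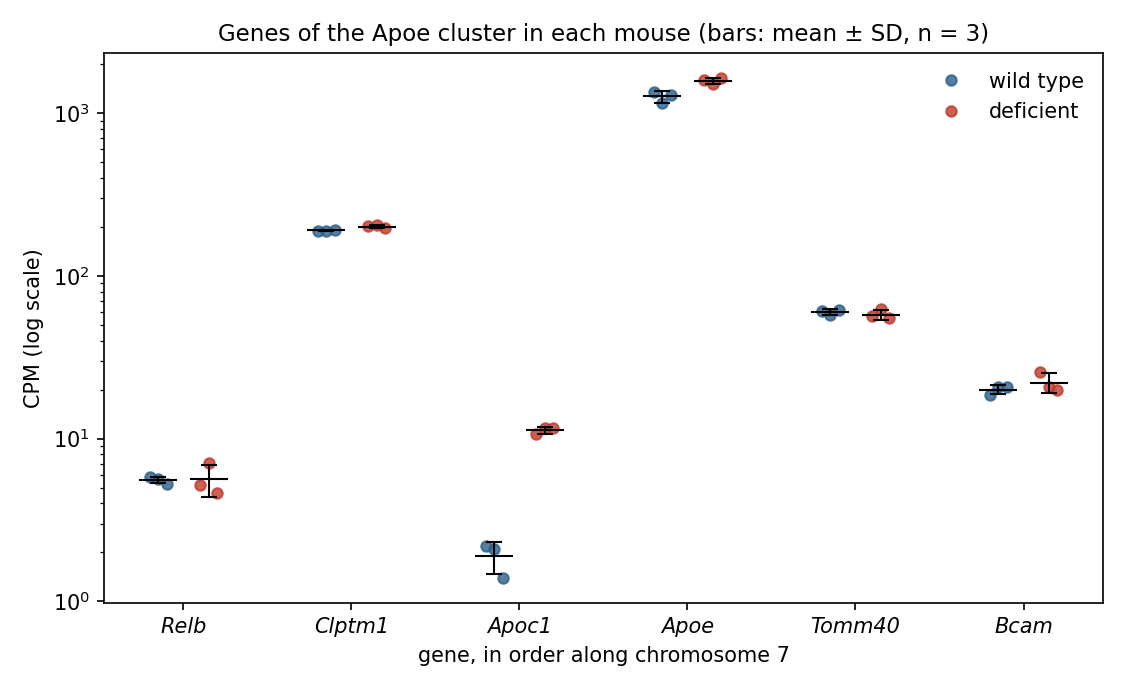
CPM of the 6 members with enough reads to be tested, on a log axis, in the order of the genes along chromosome 7. Points are mice (3 wild-type and 3 deficient), and bars give the mean ± SD (n = 3). Apoc1 goes from 1.90 to 11.3 CPM, Apoe from 1268 to 1581 CPM, and the other 4 genes lie at nearly the same height in both genotypes.

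Of the 7 neighbours, 5 had enough reads to be tested. Apoe rose, none fell and the other 4 did not pass, beside 2.45% of all tested genes that rose and 2.48% that fell (4.93% in all). DESeq2 and limma-voom also called Apoe alone, and no other neighbour had an unadjusted p under 0.05. With edgeR, 3760 of all 15127 tested genes met that unadjusted cutoff. With 1 call among 5 genes, no share can be set against that of all genes. The median log2 fold change of the 5 was 0.08, beside 0.00 over all tested genes (0.0012 before rounding). Of the 5, Apoe and Clptm1 were higher in all 3 deficient mice than in any wild-type mouse, and none was lower in all 3. Of all tested genes, 30.8% had no overlap between genotypes, 14.9% with higher and 16% with lower levels in deficient mice.

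Apoe was by far the most abundant member. Its level was 1595, 1510 and 1638 CPM in deficient mice 1, 2 and 3 and 1359, 1148 and 1297 CPM in wild-type mice 1, 2 and 3. The genotypes did not overlap, and wild-type mouse 2 was the lowest. The mean rose from 1268 ± 108 to 1581 ± 65.1 CPM (SD, n = 3 each), a log2 fold change of 0.32 ± 0.07 (SE) or 1.25-fold, with a 95% interval of 1.12 to 1.38. With edgeR and Benjamini-Hochberg adjustment over all tested genes, p was 0.0359. An exact permutation test of the 6 mice, two-sided, gave p = 0.1, the smallest that 3 against 3 mice allow. The call was lost without deficient mouse 3 (adjusted p = 0.102 by edgeR) and without wild-type mouse 1 (0.0912), 2 (0.119) or 3 (0.0956), and the log2 fold change then ran from 0.25 to 0.37. In the authors' deposited table, with the sign turned, the log2 fold change of Apoe was 0.30 with an unadjusted p of 7.27e-06.

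Apoc1 and Apoe thus differed by unequal amounts. In fold, Apoc1 moved more. In level, Apoe did: its mean was 313 CPM higher in deficient brain, while that of Apoc1 was 9.40 CPM higher. For every 1000 Apoe reads there were 6.69, 7.67 and 7.11 Apoc1 reads in deficient mice 1, 2 and 3 and 1.61, 1.83 and 1.08 in wild-type mice 1, 2 and 3. The mean of this ratio was 4.75 times as high in deficient mice, given without a test because Apoc1 was chosen for its rise.

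The other apolipoprotein genes of the cluster were almost silent in both genotypes. Apoc2, the gene for the lipoprotein lipase cofactor, had 1, 1 and 0 reads in deficient mice 1, 2 and 3 and none in any wild-type mouse. Apoc4, a little-studied apolipoprotein gene, had no read in any mouse. A count of 0 in the 6 libraries together allows up to 0.02225 CPM, by a floor of 3 counts that covers counting error only. Any rise of Apoc4 that kept it under this floor was not detectable at this depth. The floor pools both genotypes, so for a rise in deficient mice alone the limit lies higher. Because their exons overlap a readthrough gene, reads may also have been assigned elsewhere, which was not tested.

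Upstream of Apoe lies Tomm40, which encodes the pore of the translocase in the mitochondrial outer membrane. It stood at 56.4, 62.4 and 54.9 CPM in deficient mice 1, 2 and 3 and at 61.0, 57.3 and 61.6 CPM in wild-type mice 1, 2 and 3. The genotypes overlapped, and the log2 fold change was -0.05 ± 0.06 (SE, adjusted p = 0.650 by edgeR). The 95% interval of the fold was 0.877 to 1.06, which contains no rise as large as the estimate for Apoe.

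Clptm1 encodes a membrane protein known to hold GABA-A receptors in the endoplasmic reticulum. It was at 202.1, 204.3 and 196.7 CPM in deficient mice 1, 2 and 3 and at 189.3, 190.1 and 191.2 CPM in wild-type mice 1, 2 and 3. The groups did not overlap, but the shift was 1.06-fold (95% interval 0.989 to 1.13) and did not pass (adjusted p = 0.276 by edgeR).

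Relb, the gene of a subunit of the non-canonical NF-kappaB pathway, was low, at 5.17, 7.05 and 4.65 CPM in deficient mice 1, 2 and 3 and 5.79, 5.63 and 5.29 CPM in wild-type mice 1, 2 and 3. The deficient mice lay on both sides of the wild-type mice, with deficient mouse 2 the highest. The log2 fold change was 0.02 ± 0.16 (SE, adjusted p = 0.956 by edgeR), and it turned to -0.18 without deficient mouse 2.

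Bcam, the gene of a laminin receptor on endothelial and other cells, had 25.7, 20.7 and 19.9 CPM in deficient mice 1, 2 and 3 and 18.5, 20.7 and 20.8 CPM in wild-type mice 1, 2 and 3. Only deficient mouse 1 lay above the wild-type range. The log2 fold change was 0.14 ± 0.10 (SE, adjusted p = 0.427 by edgeR), and 0.02 without deficient mouse 1. The 95% intervals for Relb and Bcam reach 1.30-fold, so a rise of the size seen for Apoe cannot be told from none in either gene.

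Set per kb of the longest annotated transcript, wild-type levels were 901 ± 76.9 CPM per kb for Apoe, 39.5 ± 0.201 for Clptm1, 21.7 ± 0.826 for Tomm40, 8.24 ± 0.538 for Bcam, 3.56 ± 0.813 for Apoc1 and 1.70 ± 0.0774 for Relb (SD, n = 3). No 2 neighbours in this order overlapped among the wild-type mice. In deficient mice Apoc1 reached 21.2 ± 1.03 CPM per kb, within the spread of Tomm40 at 20.9 ± 1.44 (SD, n = 3 each). With the median transcript length of each gene instead, Apoc1 was at 29.3 and Tomm40 at 52.7 CPM per kb in deficient mice, so their rank rests on the length used.

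To see whether genes further away moved with Apoc1, all genes within 500 kb of its start were read from the same fit. Besides the members, the table held 52 such genes, of which 22 could be tested and 15 had no read. Of these, 1 rose and 1 fell, 9.09% of those tested beside 4.93% of all genes. The median log2 fold change was 0.02, and 17 of the 22 lay within 0.25 of 0 on the log2 scale.

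The gene that rose was Nkpd1, which encodes a protein of the KAP family of P-loop NTPases, at 19517838 to 19525056 on chromosome 7 and on the plus strand. Its start is at -174.8 kb from that of Apoc1, on the Relb side. It was low, with 55, 69 and 43 reads in deficient mice 1, 2 and 3 and 26, 26 and 22 in wild-type mice 1, 2 and 3. The genotypes did not overlap, and the log2 fold change was 1.19 ± 0.21 (SE, adjusted p = 0.0235 by edgeR). The call was lost without wild-type mouse 1 (0.102), 2 (0.0962) or 3 (0.0880).

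The gene that fell was Clasrp, known for a splicing-related protein that binds the kinase Clk4, and the nearest tested gene on the Relb side of the cluster (19581035 to 19604486). Its level was 36.1, 30.5 and 37.1 CPM in deficient mice 1, 2 and 3 and 51.5, 48.2 and 42.0 CPM in wild-type mice 1, 2 and 3. All deficient mice were below all wild-type mice, and log2 of the fold was -0.45 ± 0.10 (SE, adjusted p = 0.0369 by edgeR). Without deficient mouse 3 the adjusted p was 0.0653, and without wild-type mouse 1, 2 or 3 it was 0.132, 0.151 or 0.0597.

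Between the members lies Pvrl2, now named Nectin2, a cell adhesion gene between Tomm40 and Bcam, with a change of 0.09 ± 0.12 on the log2 scale (SE, adjusted p = 0.685 by edgeR). Pvr, the nearest tested gene on the Bcam side, had 0.02 ± 0.15 (adjusted p = 0.946). Between Relb and Apoc1, and between Apoe and Bcam, no tested gene passed the threshold.

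**Figure D2:**
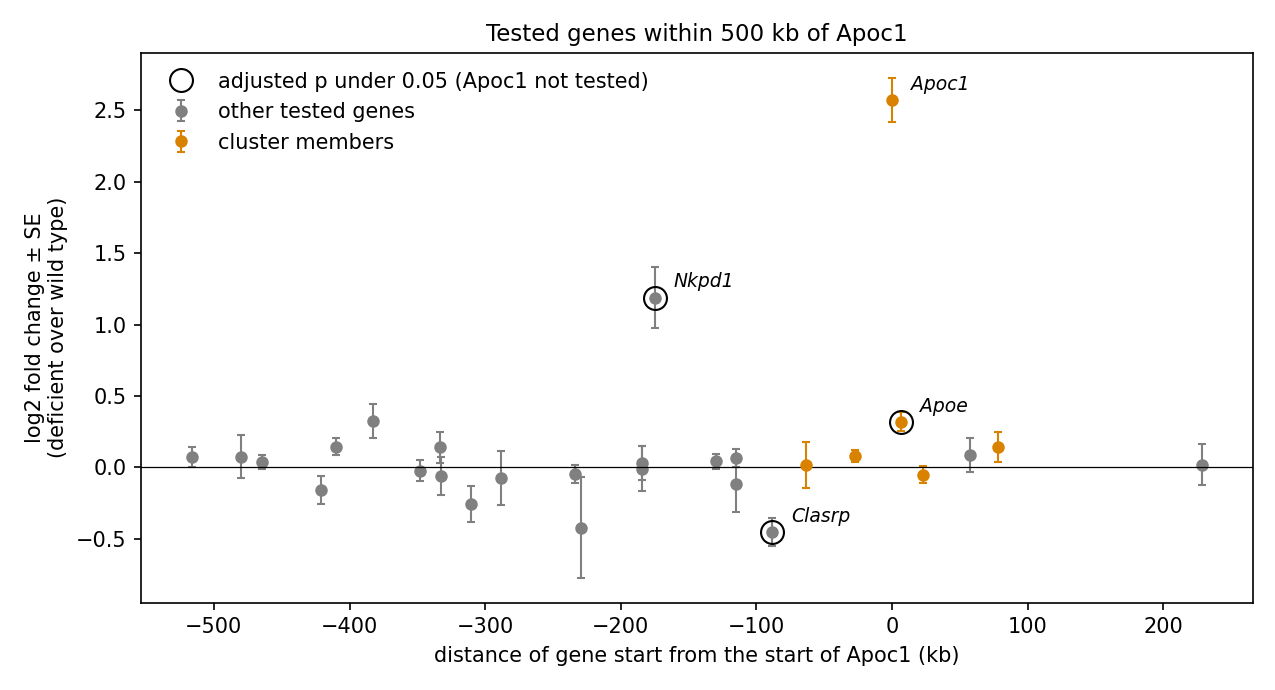
Log2 fold change of deficient over wild type (± SE) of the tested genes that lie at least partly within 500 kb of the start of Apoc1, against the distance of each gene's start from it in kb. Cluster members are orange, other genes grey, and circles mark adjusted p under 0.05 (Apoc1 is shown as a description). Apoc1 stands at 2.57, Apoe at 0.32, Nkpd1 at 1.19 and Clasrp at -0.45, with genes near 0 on both sides of the Apoe and Apoc1 pair.

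Genes tied to the members by function were then read from the same fit, as 8 lists with 172 distinct genes. Of 143 tested, 3 rose and 3 fell, 4.20% beside 4.93% of all genes, with a median log2 fold change of 0.00 (0.00065 before rounding). That share is near the background of all tested genes. As background for the unadjusted counts of single lists, 3760 of all 15127 tested genes had an unadjusted p under 0.05 with edgeR. For the DESeq2 calls the background is 1209 genes called over all, against 746 with edgeR.

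Among 17 apolipoprotein genes outside the cluster, 5 were tested, 1 rose and none fell (median 0.01). The gene that rose was Clu, for clusterin or apolipoprotein J, a secreted lipid-binding chaperone that like apolipoprotein E comes largely from astrocytes. It went from 598 ± 25.1 to 726 ± 15.1 CPM (SD, n = 3 each), a change of 0.28 ± 0.05 on the log2 scale (SE, adjusted p = 0.0226 by edgeR), near that of Apoe. Apool, Apoo and Apol8 had -0.17, -0.08 and 0.02 and did not pass.

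None of 24 lipoprotein receptor and sorting genes passed with edgeR (median -0.01), while 1 passed with DESeq2 (Trem2, higher) and 0 with limma-voom. With edgeR, 7 of these genes had an unadjusted p under 0.05, 2 higher and 5 lower. Among those with the smallest p-values were Trem2, a microglial receptor for lipid particles (0.50, adjusted p = 0.0872 by edgeR), and the receptor genes Vldlr (-0.18, 0.0943) and Lrp1 (-0.18, 0.110).

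Of 19 genes of lipid efflux and lipoprotein remodelling, Abca2, a lipid transporter gene of oligodendrocytes, fell from 578 ± 12.8 to 460 ± 51.7 CPM (SD, n = 3 each, adjusted p = 0.0449 by edgeR), and none rose (median -0.07). Summed oligodendrocyte markers were lower in the same mice, with a ratio of means of 0.802, and their part in the fall of Abca2 was not tested. Cyp27a1 (-0.57), Angptl4 (0.60) and Cyp46a1 (0.24) did not pass with edgeR. In this list 7 genes had an unadjusted p under 0.05 with edgeR, 2 higher and 5 lower. DESeq2 called 1 higher (Cyp46a1) and 3 lower, Abca2 and Cyp27a1 among them. Of 20 regulators of lipoprotein genes, Rxra rose and none fell (median 0.01). Rxra encodes a retinoid X receptor, the partner of liver X receptors, and went from 43.0 ± 1.58 to 53.5 ± 0.900 CPM (SD, n = 3 each), a change of 0.32 ± 0.05 on the log2 scale (SE, adjusted p = 0.0193 by edgeR). Insig1 (-0.16) and Cebpa (0.33) did not pass.

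For the partners of Tomm40, none of 26 mitochondrial import genes passed with edgeR, DESeq2 or limma-voom (median 0.04), and 1 had an unadjusted p under 0.05 with edgeR, with Timm44 (-0.16), Tomm20 (0.11), Pam16 (0.55) and Timm8b (0.08) at the smallest p-values. For the pathway of Relb, 1 of 18 genes rose and 1 fell (median -0.07). Of these 18, 6 had an unadjusted p under 0.05 with edgeR, 1 higher and 5 lower. Ltbr, the lymphotoxin beta receptor upstream of Relb, rose by 0.45 ± 0.09 on the log2 scale (SE, edgeR's adjusted p = 0.0276), and Chuk, the kinase IKK-alpha, fell by 0.36 ± 0.07 on the log2 scale (adjusted p = 0.0242). Nfkb1 (-0.22) and Nfkbie (-0.84) did not pass with edgeR, while DESeq2 also called Nfkbie lower. For Bcam, none of 17 laminins and partners passed with edgeR (median 0.00), while 1 passed with DESeq2 (Itga7, lower) and 0 with limma-voom. With edgeR, 5 of this list had an unadjusted p under 0.05, 1 higher and 4 lower. Here Itga7 (-0.58), Lamc3 (0.30), Mcam (-0.41) and Itga3 (-0.25) had the smallest p-values.

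Apoe is itself known as a gene of disease-associated microglia. Of 16 other tested genes of that state, Spp1, the gene of osteopontin, fell with a change of -0.82 ± 0.19 on the log2 scale (SE, adjusted p = 0.0473 by edgeR), and none rose with edgeR (median 0.05). Trem2 (0.50), Axl (0.14) and Timp2 (0.18) did not pass with edgeR, while DESeq2 called Trem2 higher. At an unadjusted p under 0.05 with edgeR, 4 of the 16 were higher and 1 lower.

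The calls of Clu, Abca2, Rxra, Ltbr and Spp1 were each lost without deficient mouse 3 and without each of the wild-type mice, with adjusted p by edgeR up to 0.107 for Clu, 0.178 for Abca2, 0.103 for Rxra, 0.122 for Ltbr and 0.190 for Spp1. That of Chuk was lost without deficient mouse 3 (0.0654) and without wild-type mouse 1 (0.106) or 2 (0.122). With every mouse kept, the call of Abca2 was also lost under the filter of a mean of at least 5 CPM. The call of Spp1 was lost under that filter and with no scaling beyond library totals. Over all 8 lists 20 genes passed with edgeR without deficient mouse 1, and none without deficient mouse 3, wild-type mouse 1 or wild-type mouse 2.

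**Figure D3:**
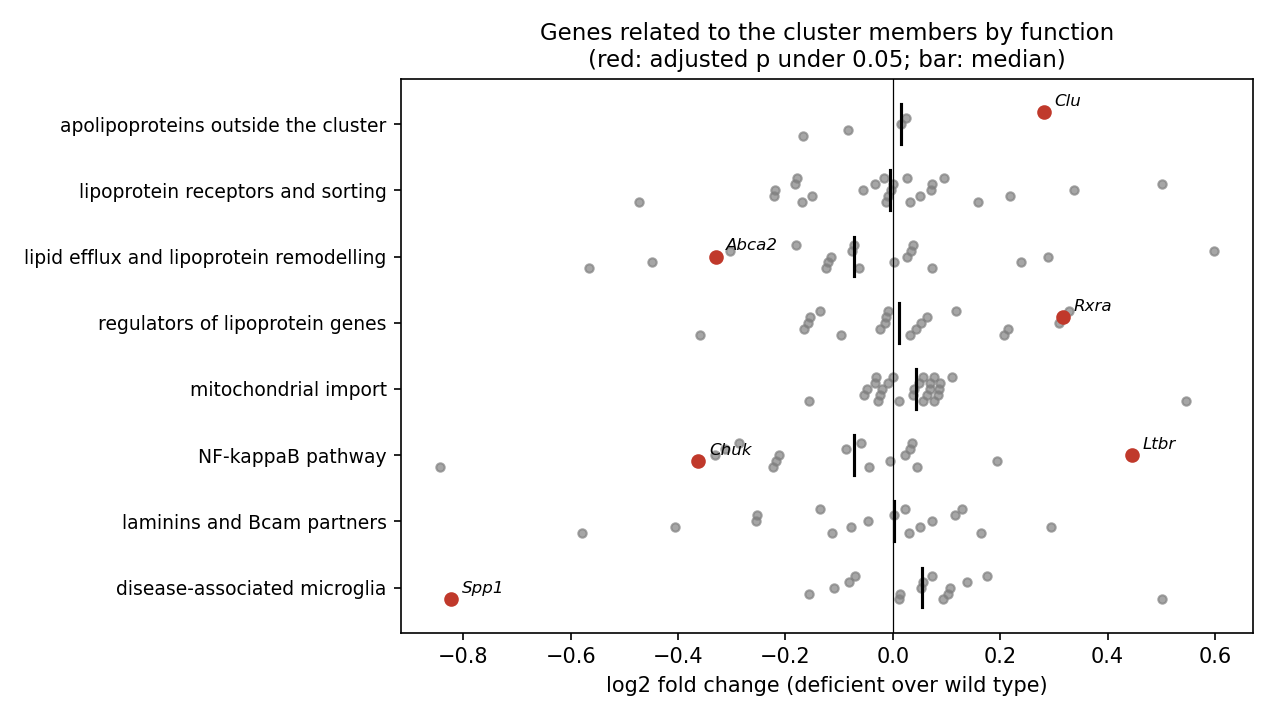
Log2 fold change of deficient over wild type for each tested gene of 8 lists related to the cluster members by function. Red points are genes at adjusted p under 0.05, grey points the others, and the black bar is the median of the list. The medians lie between -0.07 and 0.05, and 6 genes are red: Clu, Abca2, Rxra, Chuk, Ltbr and Spp1.

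Because these are samples of whole tissue, more cells of a type and more RNA per cell cannot be told apart. Marker genes of 10 cell types were therefore summed in each mouse. Calls of single markers stand beside 4.93% of all 15127 tested genes called with edgeR, and 1209 of them with DESeq2. Astrocyte markers came to 7063, 6541 and 7240 CPM in deficient mice 1, 2 and 3 and 6302, 6408 and 6631 CPM in wild-type mice 1, 2 and 3. Deficient mouse 2 fell within the wild-type range, and the ratio of means was 1.08. Much of the sum is Slc1a2, with means of 2907 CPM in deficient and 2478 CPM in wild-type mice. With each gene given equal weight, the mean log2 deviation from each gene's mean was 0.14, -0.13 and 0.09 in deficient mice 1, 2 and 3. In wild-type mice it was -0.04 to -0.03, so deficient mouse 2 was the lowest of all. The log2 fold change was positive for 9 markers and negative for 5. Of 14 astrocyte markers, the gap junction gene Gja1 rose (log2 fold change 0.23 ± 0.05, SE, adjusted p = 0.0311 by edgeR) and none fell, while Gfap had 0.42 with an adjusted p of 0.0508. With DESeq2, 4 astrocyte markers rose.

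Microglial markers summed to 423, 480 and 440 CPM in deficient mice 1, 2 and 3 and 397, 384 and 385 CPM in wild-type mice 1, 2 and 3. The genotypes did not overlap, and the ratio of means was 1.15. Of 15 tested, Siglech (0.66 ± 0.10, SE) and Fcrls (0.80 ± 0.14) rose with edgeR and none fell, and 5 rose with DESeq2. At an unadjusted p under 0.05 with edgeR, 8 were higher and 0 lower. Of all 15127 tested genes, 3760 met that cutoff in either direction. The higher microglial markers and the higher mean of the astrocyte sum go in the direction of Apoe and Apoc1. Their part in the 1.25-fold rise of Apoe was not tested. Their part in the difference of Apoc1 was not tested either.

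Markers of perivascular macrophages, the tissue macrophages along vessels, summed to 24.3 to 33.5 CPM in deficient and 27.9 to 33.3 CPM in wild-type mice, and 2 of 8 tested had an unadjusted p under 0.05 with edgeR (Stab1 -0.37, F13a1 0.46), none past the threshold there or with DESeq2. Liver markers, which would rise with plasma or hepatic RNA, summed to 1.13 to 2.40 CPM in deficient and 0.971 to 1.53 CPM in wild-type mice. The ratio of means was 1.36 and the genotypes overlapped, at sums too low to tell a difference from none. Of these 11 genes, 1 was abundant enough to test (Serpina1b, 0.86, not past the threshold) and Ahsg had no read. Choroid plexus markers ran from 622 to 930 CPM in deficient and from 824 to 962 CPM in wild-type mice with no marker past the threshold in edgeR or DESeq2 and 0 of 12 at an unadjusted p under 0.05 (Ttr -0.24, Aqp1 -0.39), and blood cell markers from 64.3 to 74.9 and from 74.2 to 82.3 CPM, where the globin gene Hbb-bt, which has near-identical copies among the globins, fell (-0.62 ± 0.12, SE, adjusted p = 0.0266 by edgeR). Hba-a2, another globin gene, had -0.36 ± 0.12 (SE) and did not pass (adjusted p = 0.114 by edgeR).

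Endothelial markers ran from 410.1 to 464 CPM in deficient and from 407 to 414 CPM in wild-type mice with none of 12 past the threshold in edgeR or DESeq2 and 4 at an unadjusted p under 0.05 (Esam 0.32, Pecam1 0.22). Mural and meningeal markers ran from 428 to 458 and from 390.3 to 446 CPM, and Lum, which encodes lumican of the extracellular matrix, fell with edgeR (-1.13 ± 0.15, SE). Most of this list leaned the other way, with a median of 0.15 and 10 of 15 positive. Vtn, the gene of vitronectin, had 0.25 ± 0.07 (SE) and did not pass with edgeR (adjusted p = 0.0807), while DESeq2 called Vtn and Acta2 higher. Summed oligodendrocyte markers were lower without overlap, at 5886 to 7419 against 7512 to 8496 CPM. With each gene given equal weight the genotypes overlapped. The mean log2 deviation from each gene's mean was then 0.06 in deficient mouse 1 and 0.01 in wild-type mouse 3. Of these markers 3 of 12 fell, among them Trf (-0.49 ± 0.08, SE, adjusted p = 0.0226 by edgeR), whose exons overlap those of another gene. Neuron markers overlapped, at 10438 to 12505 against 9889 to 10742 CPM, and none of 12 passed with edgeR (4 at an unadjusted p under 0.05), while Camk2a (0.38) and Syt1 (0.29) passed with DESeq2.

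The calls of Gja1, Siglech, Fcrls, Trf and Hbb-bt were lost without deficient mouse 3 or any one of the wild-type mice, with adjusted p by edgeR up to 0.138 for Gja1, and that of Lum without wild-type mouse 1 (0.0713) or 2 (0.0552).

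**Figure D4:**
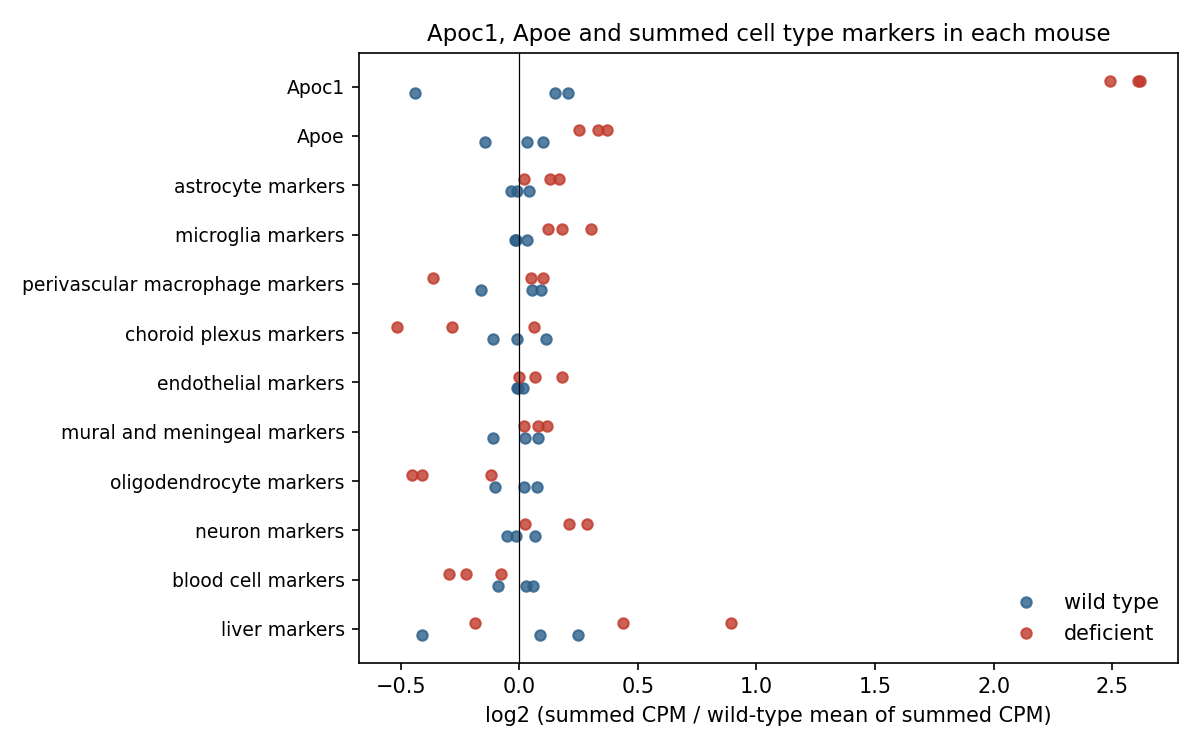
Log2 of each mouse's CPM relative to the wild-type mean, for Apoc1, Apoe and the summed markers of 10 cell types. Points are mice, blue wild type and red deficient. The deficient mice lie between 2.49 and 2.62 for Apoc1 and between 0.25 and 0.37 for Apoe, and microglial markers are the only summed list with all deficient mice above all wild-type mice.

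Genes whose levels over the 6 mice followed Apoc1 most closely were sought among 13961 others with a mean of at least 1 CPM. The highest Pearson correlations of log2 CPM were with Slitrk6 (0.998), Endou (0.996), Pnck (0.995), Dnajb11 (0.994) and Ankmy2 (0.994), none of them on chromosome 7. Their sizes differed widely: Pnck, a calmodulin-dependent kinase gene, went from 71.7 ± 3.76 to 147.6 ± 9.32 CPM (SD, n = 3 each), while Ankmy2 went from 52.8 ± 0.292 to 55.9 ± 0.147 CPM. For Apoe the closest were Emc3 (0.987), Amh (0.986), Tspan31 (0.986), Rsl24d1 (0.985) and BC031181 (0.984). All points share the same 6 libraries, and with 13961 genes compared over 6 mice such correlations describe a pattern and are not a result.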

How the data were processed

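RNA-seq counts of 6 brains were analysed. The deposited table holds 1 raw count per gene symbol and mouse, not normalized. The authors also deposited, per the file headers, a mean signal, shrunken log2 fold changes and their standard errors, the test score and its p-value before adjustment. These columns were used only for comparison. DESeq2 and GRCm38 are named in the submitters' processing notes; the sources used here name no aligner, counter, annotation or strand setting.

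Counts were fitted in R 4.3.3 with edgeR 4.0.16 (filter of minimum count 10 and minimum total 15, TMM scaling, quasi-likelihood test, genotype only) over all 15127 genes kept, with Benjamini-Hochberg adjustment and a threshold of 0.05. The filter kept 99.94 to 99.95% of each library's counts. The edgeR fit was tested on simulated data. Permutation tests used log2 of CPM plus 0.1. Positions, lengths and exon overlaps came from GENCODE M21 (GRCm38): 39391 of 43344 distinct symbols matched exactly and 936 by synonym. Alternatives were other scalings and filters, DESeq2 1.42.0, limma-voom (limma 3.58.1), the replicate number as a block and leaving out each mouse.

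The members and lists were chosen with earlier results of these data known. Named genes are the members, window genes past the threshold and the nearest tested gene on each side, the 4 (2 for cell type markers) smallest p-values of each list, and the 5 genes most correlated with Apoc1 and with Apoe. Some genes that this rule names are not reported here.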

Additional observations from a re-analysis of the deposited data

How the results depend on the processing

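Over all genes 1121 passed with no low-count filter, 1209 with DESeq2 and 44 (without wild-type mouse 1) to 2098 (without deficient mouse 1) when 1 mouse was left out, against 746 with edgeR. Among the neighbours of Apoc1, 0 to 1 passed when 1 mouse was left out. In the 500 kb window 1 passed with a mean of at least 5 CPM, where Nkpd1 was filtered out, and 0 to 2 when 1 mouse was left out. Of the functional lists 12 genes passed with DESeq2, and 0 to 20 when 1 mouse was left out. Same-numbered mice did not deviate together in all 3 pairs (correlations of -0.06, -0.06 and 0.14 over genes), and deficient mouse 1 correlated best with wild-type mouse 2 (0.16), so the numbers were not taken as pairs. With the replicate block 58 genes passed over all, 0 neighbours, 0 window genes and 0 of the functional lists, and the log2 fold change of Apoe was 0.32 (adjusted p = 0.0741 by edgeR); that of Relb was -0.0016. The fit with the block has fewer residual degrees of freedom. Apoc1 stayed at 2.56 to 2.59 on the log2 scale under the 8 alternatives that kept every mouse.

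When 1 mouse was left out, the log2 fold change ran from -0.18 to 0.14 for Relb and from -0.079 to 0.17 for Pvr; that of Apoo from -0.15 to 0.044 and of Apol8 from -0.033 to 0.13 also changed sign, none of them past the threshold. With the median transcript length, wild-type levels were 1552 CPM per kb for Apoe, 265 for Clptm1, 54.6 for Tomm40, 24.8 for Bcam, 4.92 for Apoc1 and 2.53 for Relb, in the same order. Depth limits Apoc2 and Apoc4, which had 2 reads and none in all.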
